A study of Homo sapiens with 5 samples.

Results

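Heterogeneous nuclear ribonucleoproteins (hnRNPs) and the polypyrimidine tract binding protein PTBP1 were followed through a mixture series of 2 human lung adenocarcinoma RNAs. The set held 10 genes, namely HNRNPA1, HNRNPA2B1, HNRNPC, HNRNPD, HNRNPDL, HNRNPH1, HNRNPK, HNRNPL, HNRNPU and PTBP1, of 61220 genes with a listed transcript. They were chosen by name, and all transcripts that GENCODE v44 gives to them were taken, which came to 202 of 227751 human transcripts. NCI-H1975 and HCC827 are established cell lines from lung adenocarcinoma. Poly(A) RNA of each line was combined by mass so that HCC827 made up 0, 25, 50, 75 or 100% of it, and each mixture was sequenced as PCR-amplified cDNA on a nanopore PromethION flow cell. Libraries are named by their NCI-H1975 to HCC827 ratio, from 100:0 (NCI-H1975 alone) to 0:100 (HCC827 alone). NCI-H1975 RNA was labelled as carrying sequins mixA and HCC827 RNA sequins mixB. Each ratio had 1 library, and all libraries came from a single RNA preparation per line, so the tests compare these preparations and their p-values do not cover differences between cultures. Values below are given in the order from 100:0 to 0:100 unless stated otherwise.

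HnRNPs are abundant nuclear proteins that coat nascent transcripts and steer splicing, export and stability, most often by binding short sequence elements in introns and exons. Several members of the family, HNRNPL and PTBP1 among them, limit their own amount by splicing their transcripts into forms that carry an early stop codon and are degraded by nonsense-mediated decay. HNRNPA1, HNRNPA2B1 and PTBP1 are also known for acting on the mutually exclusive exons of the pyruvate kinase gene PKM.

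The libraries held 2932250, 4058751, 3879301, 3076856 and 3092629 reads, with no run along the mixing ratio. Several properties of the libraries did run with it. The mean length of the transcripts that reads were assigned to went from 2578.5 bases in the 100:0 library to 2179.7 in the 0:100 library, and the TMM scaling factor from 1.159 to 0.8689. Sequins, synthetic RNAs that the labels give to both lines, numbered 5475 reads at 100:0 but 0 at 0:100, against the label of that library. Of 8 epithelial lung markers all had reads, and their summed level ranged from 5530 to 16030 CPM (counts per 1000000 reads, TMM-scaled), with NAPSA at 7 reads and SFTPB at 1 read in the 100:0 library. Of 10 markers of blood, stromal and endothelial cells, PTPRC, CD3E and LYZ had 0 reads in every library, and the sum ranged from 8.187 to 187.3 CPM. COL1A1 made up most of that sum, with 532, 508, 351, 163 and 19 reads. The part of these properties in the results below was not tested, except where a value is given.

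The alternative segments that the isoform results turn on are shown here, from the GRCh38 genome at the coordinates of GENCODE v44. In the 4 cassette or splice-site segments of HNRNPA2B1, HNRNPC and HNRNPD, capitals mark the alternative segment and lower case the 15 exon bases on either side. They are the exon that sets B1 apart from A2 (chr7:26197831-26197866, minus strand), the extension that sets C2 apart from C1 (chr14:21230958-21230996, minus strand), and the 2 exons whose combinations give the forms of HNRNPD, also called AUF1 (chr4:82371528-82371584 and chr4:82356537-82356683, minus strand). For HNRNPL the start of the poison exon, after 15 bases of the exon before it, at chr19:38841613-38841682 (minus strand) is shown up to the in-frame stop codon, in capitals, which begins at base 57 of the exon. For PTBP1 the alternative exon at chr19:805492-805569 (plus strand) is given with its flanks, and capitals mark the 21 bases that the shorter, 57-base form of the exon lacks.
HNRNPA2B1 36-base exon: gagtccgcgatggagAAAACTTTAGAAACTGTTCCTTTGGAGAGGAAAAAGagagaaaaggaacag
HNRNPC 39-base extension: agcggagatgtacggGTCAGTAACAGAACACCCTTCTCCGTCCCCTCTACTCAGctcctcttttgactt
HNRNPD 57-base exon: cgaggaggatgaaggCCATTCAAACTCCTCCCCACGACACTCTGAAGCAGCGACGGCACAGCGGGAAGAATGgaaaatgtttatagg
HNRNPD 147-base exon: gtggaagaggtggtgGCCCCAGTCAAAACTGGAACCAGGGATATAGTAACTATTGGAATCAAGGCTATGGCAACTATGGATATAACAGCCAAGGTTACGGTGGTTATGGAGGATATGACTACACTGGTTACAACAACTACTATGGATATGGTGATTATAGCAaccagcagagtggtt
HNRNPL 70-base exon up to the stop: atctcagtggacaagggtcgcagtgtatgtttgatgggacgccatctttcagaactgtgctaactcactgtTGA
PTBP1 78-base exon: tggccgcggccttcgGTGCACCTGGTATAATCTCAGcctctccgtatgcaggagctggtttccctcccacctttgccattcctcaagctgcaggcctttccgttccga

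The first question was which of the 10 genes differed in level between the 2 RNAs. HNRNPA1, HNRNPL, PTBP1 and HNRNPC rose with the HCC827 fraction, and HNRNPA2B1 and HNRNPH1 fell. HNRNPD, HNRNPDL, HNRNPK and HNRNPU did not pass the test. Log2 expression was regressed on the HCC827 fraction with edgeR's quasi-likelihood test. A slope thus gives the log2 difference fitted between pure HCC827 and pure NCI-H1975 RNA, and p-values were adjusted by Benjamini-Hochberg over all 13492 genes tested. The fit takes log2 level as a straight line, which mixing by mass does not give exactly, so slopes are approximate. The 6 calls were 60.0% of the 10 genes, where 45.8% of all genes tested were called (23.5% rose and 22.3% fell), so calls were common in this series. The median size of the slope, without its sign, was 0.555 over the 10 genes and 0.665 over all genes. In 7 of the 10 genes the libraries ran in the order of the mixture, as they did in 28.5% of all genes tested. As bulk RNA was measured, more RNA per cell and more cells with the transcript cannot be told apart.

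**Figure D1:**
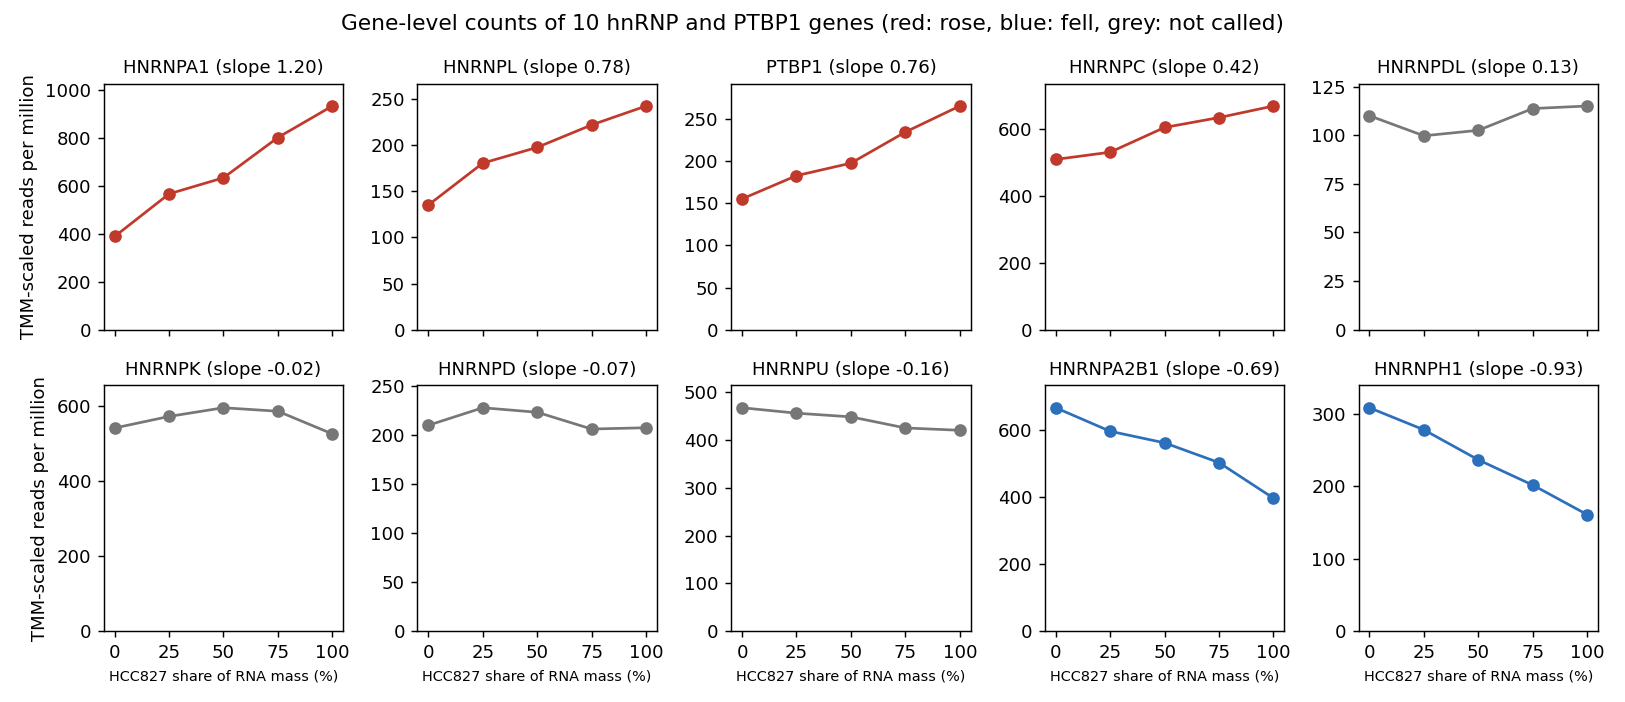
TMM-scaled CPM of each of the 10 genes (vertical axis, starting at 0) against the HCC827 share of RNA mass in percent (horizontal axis), with 1 point per library. HNRNPA1 climbs from 389.2 to 934.1 CPM and HNRNPH1 descends from 308.4 to 161.1 CPM, while HNRNPK lies between 525.1 and 594.6 CPM.

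Among the A and B proteins, which bind purine-rich and UAG-containing elements and often favour exon skipping, the 2 main genes moved in opposite directions. HNRNPA1 (ENSG00000135486.19, chr12:54280193-54287088, plus strand) stood at 389.2, 567.1, 634.4, 802.5 and 934.1 CPM. Every step of the mixture was higher than the one before, and the 0:100 level was 2.40-fold the 100:0 level (slope 1.20 ± 0.13 SE, edgeR adjusted p = 1.36e-05). HNRNPA2B1 (ENSG00000122566.22, chr7:26171151-26201529, minus strand), the closest relative of HNRNPA1 in the set, stood at 666.6, 596.5, 562.0, 503.1 and 397.1 CPM. Here every step was lower than the one before, and the 100:0 level was 1.68-fold the 0:100 level (slope -0.69 ± 0.12 SE, edgeR adjusted p = 0.000537). The number of HNRNPA1 reads per HNRNPA2B1 read was 0.584 (95% interval 0.546 to 0.625), 0.951, 1.13, 1.60 and 2.35 (2.19 to 2.53). That ratio does not depend on how libraries are scaled, and it put HNRNPA2B1 ahead in the 100:0 library and HNRNPA1 ahead in the 0:100 library. HNRNPA1 has many processed copies in the genome: 76 annotated copies, of which 23 had reads, held 560 reads, or 5.07% of the 11040 reads of the gene itself. Reads that such copies share with HNRNPA1 could have been divided either way. The 5′ end of HNRNPA2B1 overlaps CBX3 on the opposite strand, which had 6955 reads beside the 9527 of HNRNPA2B1, and since strand use in the counting is not given in the sources used here, reads in the overlap are uncertain.

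HNRNPH1 (ENSG00000169045.19, chr5:179614178-179634784, minus strand), which binds runs of guanine, stood at 308.4, 278.0, 236.6, 201.8 and 161.1 CPM. Each library was lower than the one before, and the 100:0 level was 1.91-fold the 0:100 level (slope -0.93 ± 0.12 SE, edgeR adjusted p = 5.18e-05). HNRNPL (ENSG00000104824.18, chr19:38836370-38852347, minus strand), which binds CA repeats, stood at 135.0, 180.4, 197.5, 221.8 and 242.3 CPM. These levels ran in order, to 1.80-fold the 100:0 level (slope 0.78 ± 0.13 SE, edgeR adjusted p = 0.000342). PTBP1 (ENSG00000011304.22, chr19:797075-812327, plus strand), a repressor that binds pyrimidine-rich tracts, stood at 155.1, 182.7, 197.5, 234.4 and 265.3 CPM. It also ran in order, to 1.71-fold the 100:0 level (slope 0.76 ± 0.11 SE, edgeR adjusted p = 0.000168). The size of these changes depended on the scaling: with plain library totals the slopes of HNRNPL and PTBP1 were 0.37 and 0.35 (edgeR adjusted p = 0.0245 and 0.0181), those of HNRNPA1 and HNRNPA2B1 0.79 and -1.10, and that of HNRNPH1 -1.34, all 5 still past the threshold.

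HNRNPC (ENSG00000092199.19, chr14:21209136-21269494, minus strand), which binds uridine tracts and packages nascent RNA, stood at 508.0, 529.5, 603.3, 632.8 and 667.3 CPM. The libraries ran in order over a 1.31-fold range (slope 0.42 ± 0.11 SE, edgeR adjusted p = 0.00782). This call depended on the scaling. With plain library totals, under which the median slope of all genes moved from -0.03 to -0.44, the HNRNPC slope was 0.0071 (adjusted p = 0.961), and with the trend on transcript length removed it was 0.26 (adjusted p = 0.076).

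The other 4 genes had flat or shallow profiles. HNRNPK (ENSG00000165119.22, chr9:83968083-83980631, minus strand), a poly(C)-binding protein, stood at 540.7, 571.5, 594.6, 585.3 and 525.1 CPM, highest in the mixed libraries (slope -0.02 ± 0.12 SE, edgeR adjusted p = 0.918). HNRNPU (ENSG00000153187.21, chr1:244840638-244864560, minus strand), a nuclear matrix-associated protein that binds RNA and DNA, stood at 466.4, 455.1, 447.4, 424.3 and 419.4 CPM. Its libraries ran in order but the slope did not pass (-0.16 ± 0.11 SE, edgeR adjusted p = 0.245). HNRNPU overlaps COX20 on the opposite strand, which had 1084 reads beside its own 7627, with the same uncertainty. HNRNPD (ENSG00000138668.20, chr4:82352498-82374503, minus strand), which binds AU-rich elements, stood at 210.2, 228.1, 223.5, 206.4 and 207.7 CPM (slope -0.07 ± 0.12 SE, edgeR adjusted p = 0.646). HNRNPDL (ENSG00000152795.18, chr4:82422565-82430462, minus strand), its paralogue next to it on chromosome 4, stood at 110.0, 99.69, 102.5, 113.7 and 115.0 CPM (slope 0.13 ± 0.13 SE, edgeR adjusted p = 0.465). With plain library totals, HNRNPU, HNRNPD and HNRNPK had slopes of -0.57, -0.48 and -0.43 and passed as falling (adjusted p = 0.000757, 0.00433 and 0.0094), and the HNRNPDL slope was -0.28 (adjusted p = 0.0909). HNRNPK had a slope of 0.16 without the 0:100 library, and HNRNPU one of 0.12 with the length trend removed, neither of which passed (adjusted p = 0.392 and 0.39).

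Levels were also divided by transcript length, and the order of genes below holds for that measure alone. Whether read counts grew with transcript length here was not tested. For 34 of the 202 transcripts, with 17.1% of the reads, the length itself differed from GENCODE v44. By plain CPM the order differed: HNRNPU, at 419.4 to 466.4 CPM, was above HNRNPH1, HNRNPL and HNRNPD in every library. As CPM per kilobase, mean ± SD over the 5 libraries, HNRNPC had 371.1 ± 41.4 and HNRNPA1 343.0 ± 104.5, with overlapping spreads. HNRNPC was above HNRNPA1 in the 100:0 library (321.4 against 208.8) and below it in the 0:100 library (419.6 against 476.9). HNRNPK (214.1 ± 10.6) and HNRNPA2B1 (190.6 ± 36.4) followed, with overlapping spreads. Then came HNRNPH1 (138.1 ± 38.9), HNRNPL (113.0 ± 23.5) and HNRNPD (109.2 ± 6.0), with overlapping spreads between neighbours in that order. HNRNPU (98.8 ± 5.2) was below HNRNPD in every library, at 104.0 against 111.8 in the 100:0 library and 92.96 against 102.8 in the 0:100 library. PTBP1 (70.2 ± 14.6) and then HNRNPDL (42.5 ± 3.1) were lower. These SDs include the trend along the mixture and are not replicate error. The order moved with the RNA: HNRNPA2B1 had 234.2 CPM per kilobase in the 100:0 library, above the 208.8 of HNRNPA1, and 137.7 against 476.9 in the 0:100 library. HNRNPH1 had 185.2 in the 100:0 library, above the 77.07 of HNRNPL, and 88.32 against 141.1 in the 0:100 library, where HNRNPD (102.8), HNRNPU (92.96) and PTBP1 (89.53) were also above it.

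The make-up of the set differed between libraries more than its total did. Summed over the 10 genes, the level was 3490, 3689, 3799, 3926 and 3934 CPM, while their plain share of reads was 0.404%, 0.392%, 0.382%, 0.365% and 0.342%, so the direction of the sum turned with the scaling. Within the sum, which does not depend on scaling, HNRNPA1 took 11.2% in the 100:0 library and 23.7% in the 0:100 library. HNRNPA2B1 took 19.1% and 10.1%, HNRNPH1 8.84% and 4.10%, and PTBP1 4.44% and 6.74%.

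A wider list of 32 other hnRNP and related RNA-binding genes was set beside the 10. Of the 31 tested, 16 passed (51.6%, beside 45.8% of all genes), 6 rising and 10 falling, and with plain library totals the split was 2 and 15. The falling count depended on the 0:100 library, without which 7 rose and 4 fell, and by the DESeq2 Wald test 6 rose and 6 fell. The steepest rising gene was HNRNPUL1, a relative of HNRNPU, at 48.94, 91.58, 138.2, 163.4 and 198.7 CPM (slope 1.87 ± 0.20 SE, edgeR adjusted p = 1.58e-05). RALY, a relative of HNRNPC, and the poly(C)-binding PCBP1 had slopes of 0.92 and 0.74. Among the falling genes, PCBP4 had 28.89, 26.43, 19.01, 15.74 and 13.4 CPM (slope -1.19 ± 0.24 SE, edgeR adjusted p = 0.00158), and PTBP3, a paralogue of PTBP1, had 120.3, 126.6, 107.4, 94.45 and 73.69 CPM (slope -0.72 ± 0.15 SE, edgeR adjusted p = 0.00192). PCBP3 had 13, 10, 5, 5 and 0 reads, too few for a fold. PTBP2, the neuronal paralogue, had 48 reads in all 5 libraries together.

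**Figure D2:**
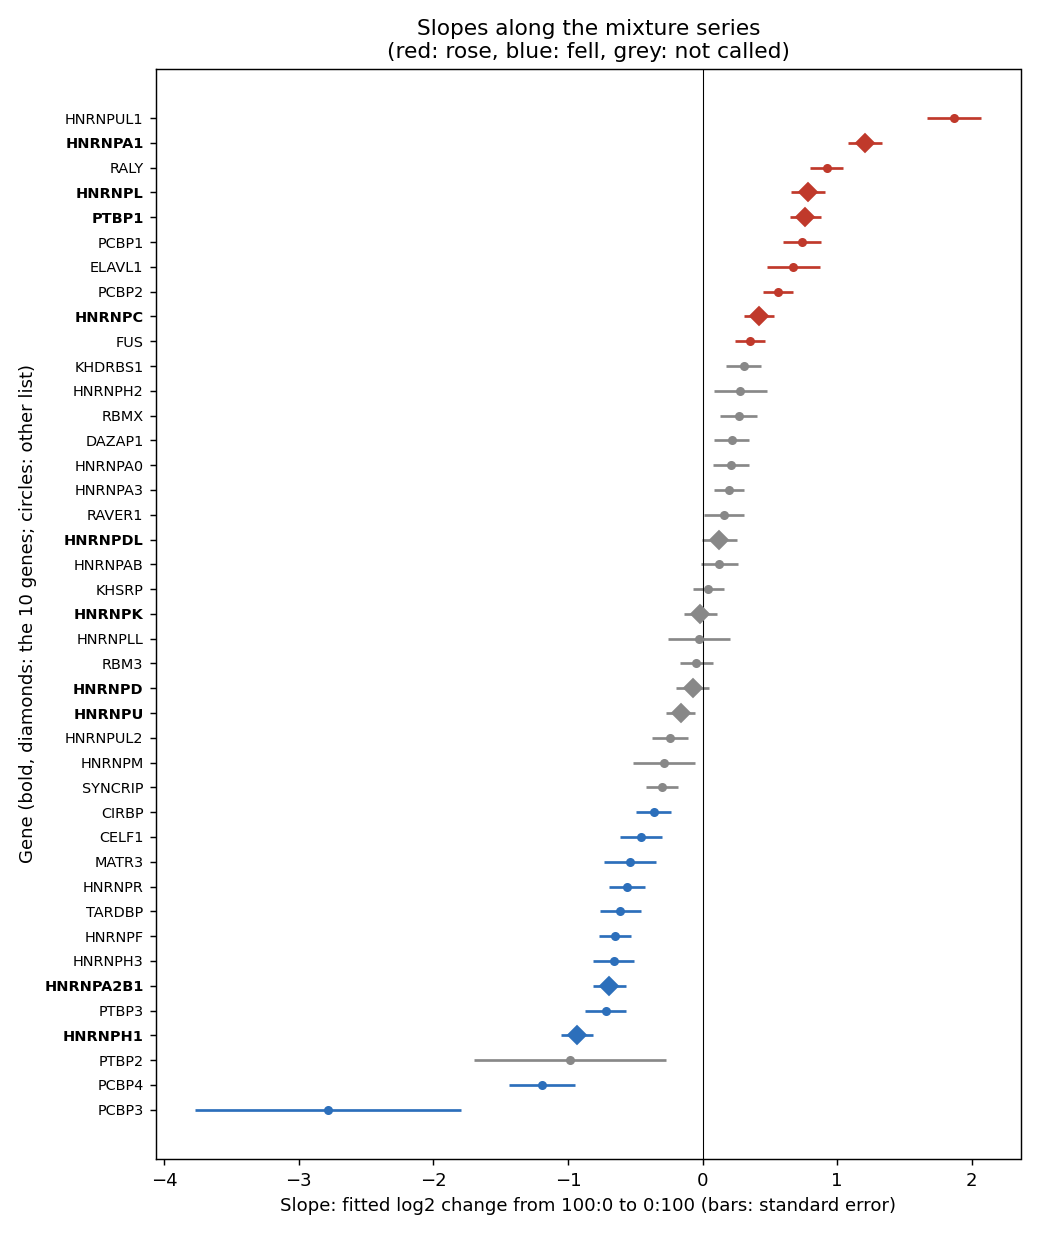
Slopes with standard errors (horizontal axis, fitted log2 difference between the pure RNAs) of the 10 genes, as diamonds with bold names, and of the 31 tested genes of the wider list, as circles. HNRNPA1, at 1.20, lies below only HNRNPUL1, at 1.87, and HNRNPH1, at -0.93, is the lowest of the 10.

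For HNRNPA1, which had the smallest adjusted p of the set, the genes with the most similar course were sought among 9317 genes with a mean of at least 10 CPM. The root-mean-square difference between centred log2 CPM profiles over the 5 libraries was 0.0209 for ARRDC1, 0.0219 for APEX1 and 0.0224 for AP2S1. ARRDC1 stood at 40.98, 59.12, 64.47, 83.61 and 98.99 CPM. The slopes of these genes were 1.20, 1.16 and 1.25. In mixtures of 2 RNAs the course of a gene follows from its levels in the pure RNAs. A close match thus shows a like ratio between them, and shared regulation was not tested.

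The next question was whether single transcripts followed their genes. Of the 202 transcripts, 27 had no reads, 67 did not reach 10 reads in 2 libraries, and 108 were tested, which together held 99.01% of the reads of the 10 genes. Of these 108, 17 rose and 23 fell (37.0%, beside 33.6% of all 31758 transcripts tested, of which 17.5% rose and 16.1% fell). Called transcripts mostly went the way of their gene: 5 of 7 rose in HNRNPA1, 5 of 6 in PTBP1 and 5 of 7 in HNRNPL, while 7 of 8 fell in HNRNPA2B1 and 13 of 15 in HNRNPH1. In HNRNPC 2 of 22 rose and in HNRNPU 2 of 21 fell. The exception to its gene's direction was HNRNPL-206, which fell. The ratio of reads between the leading 2 transcripts of a gene was 1.62 in HNRNPH1, 1.27 in HNRNPA1 and 1.01 to 1.07 in the other 8 genes, and how reads that fit several transcripts were divided is not given in the sources used here. Shares of single transcripts therefore carry an uncertainty that the counting intervals do not include.

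Most transcript shares within the genes differed little between libraries. The test for isoform usage, edgeR's diffSpliceDGE along the HCC827 fraction with transcripts combined by Simes' method, called 1 of the 10 genes, HNRNPL (adjusted p = 0.00401), where 0.402% of 7455 genes tested were called. Over the transcripts of the 10 genes, the median size of the usage change was 0.121 on the log2 scale, beside 0.144 over all transcripts tested. Of the coding transcripts of HNRNPA1, HNRNPA1-203 held 39.8% to 43.2% of reads and HNRNPA1-204 32.1% to 33.6%. In HNRNPK, HNRNPK-205 held 30.3% to 33.1% and HNRNPK-204 30.3% to 33.2%. HNRNPA2B1-203, annotated for nonsense-mediated decay, had 144, 177, 114, 62 and 53 reads and its share went from 6.37% to 4.97% (usage change -0.39, edgeR adjusted p = 1.0). It fell as a transcript (slope -1.31 ± 0.22 SE, edgeR adjusted p = 0.000123).

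The leading transcripts of each called gene had slopes of the same sign, though their size differed. In HNRNPA1, the slopes of HNRNPA1-203, HNRNPA1-204 and HNRNPA1-201 were 1.26, 1.17 and 1.06, and HNRNPA1-205, annotated for nonsense-mediated decay, had 0.85. In HNRNPA2B1, the coding HNRNPA2B1-201, HNRNPA2B1-209 and HNRNPA2B1-202 had -0.65, -0.80 and -0.65, and the retained-intron HNRNPA2B1-204 and HNRNPA2B1-206 had -0.76 and -0.66. The slope of HNRNPA2B1-203, given above, was steeper at -1.31. HNRNPH1-203, the leading transcript of its gene with 18.1% of reads, had -0.58, and HNRNPH1-204, HNRNPH1-202, HNRNPH1-216, HNRNPH1-201 and HNRNPH1-223 had -0.73, -0.96, -0.95, -1.17 and -1.10. In HNRNPL, HNRNPL-201, HNRNPL-215, HNRNPL-204, HNRNPL-212 and HNRNPL-202 had 0.94, 0.96, 0.76, 1.00 and 0.92. Of PTBP1, PTBP1-220, PTBP1-219, PTBP1-201 and PTBP1-203 had 0.60, 0.60, 0.74 and 0.55, and PTBP1-204, with 14.9% of reads, a steeper 1.17. All of these transcripts passed the edgeR slope test, while HNRNPL-205 (0.60) and PTBP1-202 (0.70) did not. In HNRNPC, HNRNPC-201 (17.1% of reads, slope 0.41) and HNRNPC-221 (4.15%, 0.62) passed, and HNRNPC-213 (0.33) and HNRNPC-222 (0.40) did not.

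In the genes without a call, the leading transcripts did not pass the slope test. They were HNRNPD-203, HNRNPD-201, HNRNPD-210 and HNRNPD-202, from -0.27 to 0.14, HNRNPK-205, HNRNPK-204, HNRNPK-201 and HNRNPK-202, from -0.34 to 0.03, and HNRNPU-205, HNRNPU-231, HNRNPU-203, HNRNPU-226, HNRNPU-217 and HNRNPU-219, from -0.21 to -0.03. HNRNPDL-208, HNRNPDL-201, HNRNPDL-204 and HNRNPDL-207 had -0.14 to 0.29, and HNRNPDL-202 and HNRNPDL-203, annotated for nonsense-mediated decay, had 0.65 and 0.11.

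In HNRNPL the call rested on HNRNPL-206 (ENST00000597731, chr19:38836398-38842328), a transcript of 3094 bases annotated as retained intron. It is named because the gene was called through it, and it was chosen after its values were seen. It had 49, 65, 28, 34 and 8 reads, which were 10.7% (95% Wilson interval 8.19 to 13.9), 8.36%, 3.64%, 5.36% and 1.23% (0.624 to 2.41) of HNRNPL reads. The 100:0 and 0:100 intervals did not overlap, and the 50:50 library lay below the 25:75 library. Relative to the rest of the gene it changed by -1.63 on the log2 scale (diffSpliceDGE adjusted p = 0.00202; 0.152% of 26268 transcripts were called), and its own slope was -1.58 ± 0.45 SE (edgeR adjusted p = 0.0105). Its 2233-base opening exon contains the 70-base poison exon shown above within unspliced sequence. The transcript with that exon spliced in, HNRNPL-202, held 10.3%, 7.97%, 9.36%, 9.15% and 11.1% of HNRNPL reads, with overlapping intervals. The call on the gene was lost without either pure library, with an edgeR adjusted p of 0.0871 without the 100:0 library and 0.528 without the 0:100 library. HNRNPL-206 itself kept its call without the 100:0 library (usage change -1.82, edgeR adjusted p = 0.0425) and lost it without the 0:100 library (-1.24, edgeR adjusted p = 0.294).

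**Figure D3:**
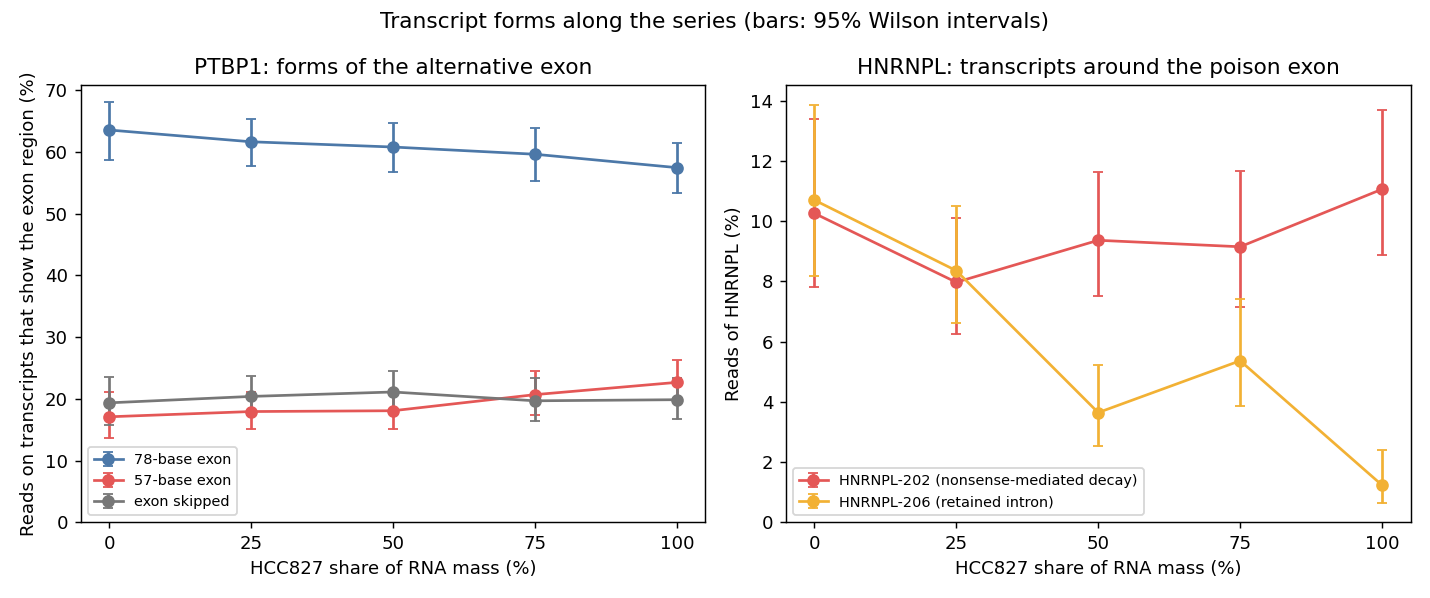
Left, share of PTBP1 reads on the 78-base, 57-base and skipped forms of its alternative exon, in percent of reads on transcripts that show the region. Right, share of HNRNPL reads on HNRNPL-202 and HNRNPL-206. The horizontal axis is the HCC827 share of RNA mass in percent and bars are 95% Wilson intervals; HNRNPL-206 goes from 10.7% to 1.23% while HNRNPL-202 stays between 7.97% and 11.1%.

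By annotated transcript type, the assigned reads of the 10 genes differed far more from each other than across the mixture. These shares rest on the same unstated division of reads between transcripts, and its part in them was not tested. HNRNPK and PTBP1 were almost wholly protein-coding (at least 99.1% and 98.9% of reads in every library), and HNRNPA1 and HNRNPC had 94.0% to 95.6% and 91.5% to 92.5%. HNRNPU had the largest share on retained-intron transcripts, 36.4% to 38.8%, and HNRNPH1 had 27.7% to 29.9% and HNRNPA2B1 23.3% to 25.6%. In HNRNPU the leading retained-intron transcripts, HNRNPU-231 and HNRNPU-203, had 843 and 818 reads, beside 852 and 816 on the coding HNRNPU-205 and HNRNPU-226. HNRNPDL had 15.5% to 25.2% of reads on transcripts annotated for nonsense-mediated decay. In HNRNPL, the retained-intron share was 35.2% (95% Wilson interval 30.9 to 39.6), 36.3%, 27.1%, 28.7% and 26.0% (22.7 to 29.5), and the protein-coding share went from 54.6% to 63.0%. The test of type usage, diffSpliceDGE over 9 of the genes and 26 types, called 0 genes by Simes p-values and 0 by the gene-wise F test, where 0.162% of 4314 genes were called (0.0811% of 9860 types). The F test called 13 genes of the whole series. Before adjustment 1 of the 9 genes, and 124 of the 4314, had a Simes p under 0.05, as did 2 of the 26 types, the types being retained intron in HNRNPL and nonsense-mediated decay in HNRNPA2B1. PTBP1 had a single type with enough reads and was not tested.

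**Figure D4:**
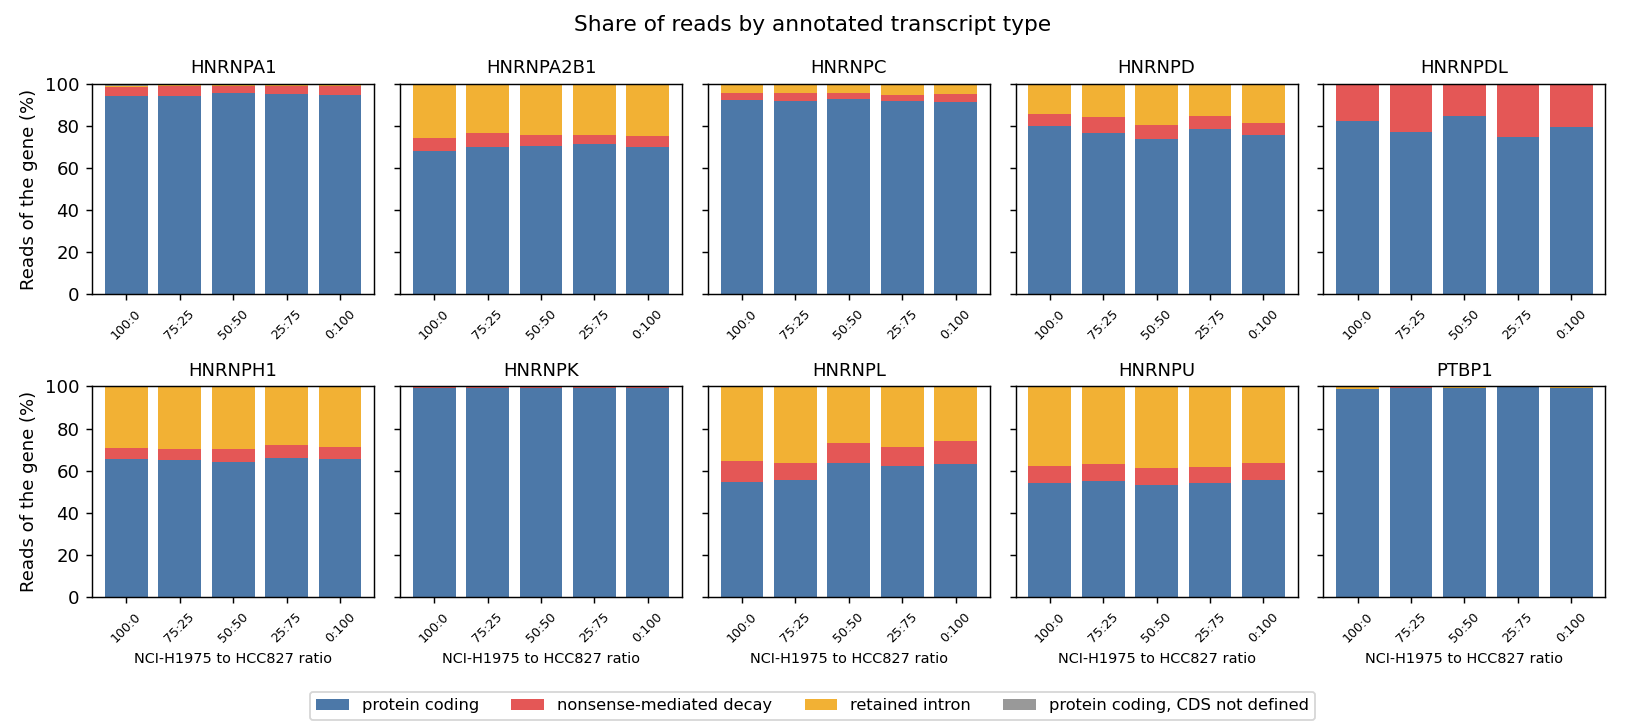
Share of each gene's reads (vertical axis, percent) by annotated transcript type in each of the 5 libraries (bars, by NCI-H1975 to HCC827 ratio). The bars of HNRNPU keep 36.4% to 38.8% on retained-intron transcripts, and those of HNRNPL go from 35.2% to 26.0%.

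Shares of single splice events were computed from the GENCODE v44 structures of the transcripts, as reads assigned to transcripts with the longer form among reads assigned to transcripts with either form. Reads assigned to either form are called informative, and none was checked for covering the segment. There were 31 events in the 10 genes, 18 of them coding. Each was tested by an exact two-sided permutation test over the 120 orders of the libraries, for which the smallest p is 0.0167. In 2 of the 31 the p was under 0.05, and with 5 libraries a lone event cannot pass a correction for 31 tests, so these p-values are given without one.

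Between the pure libraries, the shares of the known protein forms of HNRNPA2B1, HNRNPC and HNRNPD lay within a few percentage points of each other. The B1 exon of HNRNPA2B1 was on 62.6%, 65.6%, 63.8%, 66.2% and 63.2% of informative reads (p = 0.733 by exact permutation). That exon lies 175 bases from the start and 3453 bases from the end of HNRNPA2B1-201, so reads that stop short of the start do not show it, and the part of this in the share was not tested. HNRNPA2B1-202, with 2019 reads on the longer form, was listed with 1711 bases against 4106 in GENCODE v44. HNRNPA2B1-209, with 2185 reads on the shorter form, was listed with 3539 against 3628. Whether the transcript models used for counting hold the same exons was not tested, so the level of the B1 share is uncertain. The C2 extension of HNRNPC was on 34.1%, 32.2%, 33.2%, 33.2% and 32.1% (p = 0.333 by exact permutation). For HNRNPD the 57-base exon was on 88.2% to 92.3% and the 147-base exon on 50.5% to 54.0%, neither in order. The HNRNPL poison exon was on 16.0%, 12.60%, 12.97%, 12.86% and 14.97% (p = 0.75 by exact permutation).

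With all transcripts counted, PTBP1 had the event with the smallest p the test allows, and its libraries ran in the order of the mixture. Transcripts with the 21 bases shown in capitals took 78.8% (95% Wilson interval 74.0 to 82.9), 77.5%, 76.9%, 74.3% and 71.7% (67.4 to 75.7). These are shares of reads assigned to transcripts with either form of the exon (slope -6.97 percentage points, p = 0.0167 by exact permutation). That exon lies 2205 bases from the end of PTBP1-220, and the part of reads that stop short of it was not tested. The intervals of the pure libraries overlapped. Counting the skipped form as well, the 78-base exon had 63.6%, 61.7%, 60.8%, 59.6% and 57.5% and the 57-base exon 17.1%, 17.9%, 18.1%, 20.7% and 22.7%. The skipped form had 19.4%, 20.4%, 21.1%, 19.7% and 19.9%. The 57-base form rested on the single transcript PTBP1-204, with 68, 110, 107, 104 and 129 reads. As a transcript it rose (slope 1.17 ± 0.21 SE, edgeR adjusted p = 0.000229), but its usage against the rest of PTBP1 did not pass (change 0.31, or 0.20 without the 0:100 library, edgeR adjusted p = 1.0 in both). A further 791 PTBP1 reads lay on transcripts that do not show the exon.

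In HNRNPH1, the 139-base exon was on 92.0% to 93.2% of informative reads, the 30-base 5′ splice-site extension on 91.7% to 92.8% and the 41-base extension on 69.4% to 75.4%, and the 50-base exon on 85.5%, 86.4%, 87.2%, 87.6% and 87.3% (p = 0.05 by exact permutation). The 60-base 3′ splice-site extension of HNRNPK was on 61.8%, 65.2%, 65.1%, 66.2% and 66.0% (p = 0.0667 by exact permutation). In HNRNPDL, the 171-base exon was on 82.2% to 87.4% and the 105-base exon, found here on transcripts annotated for nonsense-mediated decay, on 18.2% to 30.1%, neither in order. The other HNRNPC and HNRNPD events, and those of HNRNPU but for the one that follows, had p from 0.0833 to 0.817 by exact permutation.

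HNRNPU had the other event with p under 0.05, a 5-base shift of a 5′ splice site. The longer form rested on the coding HNRNPU-214, with 218 reads over all libraries. The shorter form had 259 reads, on HNRNPU-222 and HNRNPU-224, both annotated for nonsense-mediated decay. None of these transcripts passed the test of usage against the rest of HNRNPU. The longer form had 54.6% (95% Wilson interval 45.2 to 63.7), 45.4%, 46.4%, 40.0% and 38.0% (27.6 to 49.7) of 71 to 110 informative reads per library (p = 0.0333 by exact permutation). The intervals of the pure libraries overlapped.

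**Figure D5:**
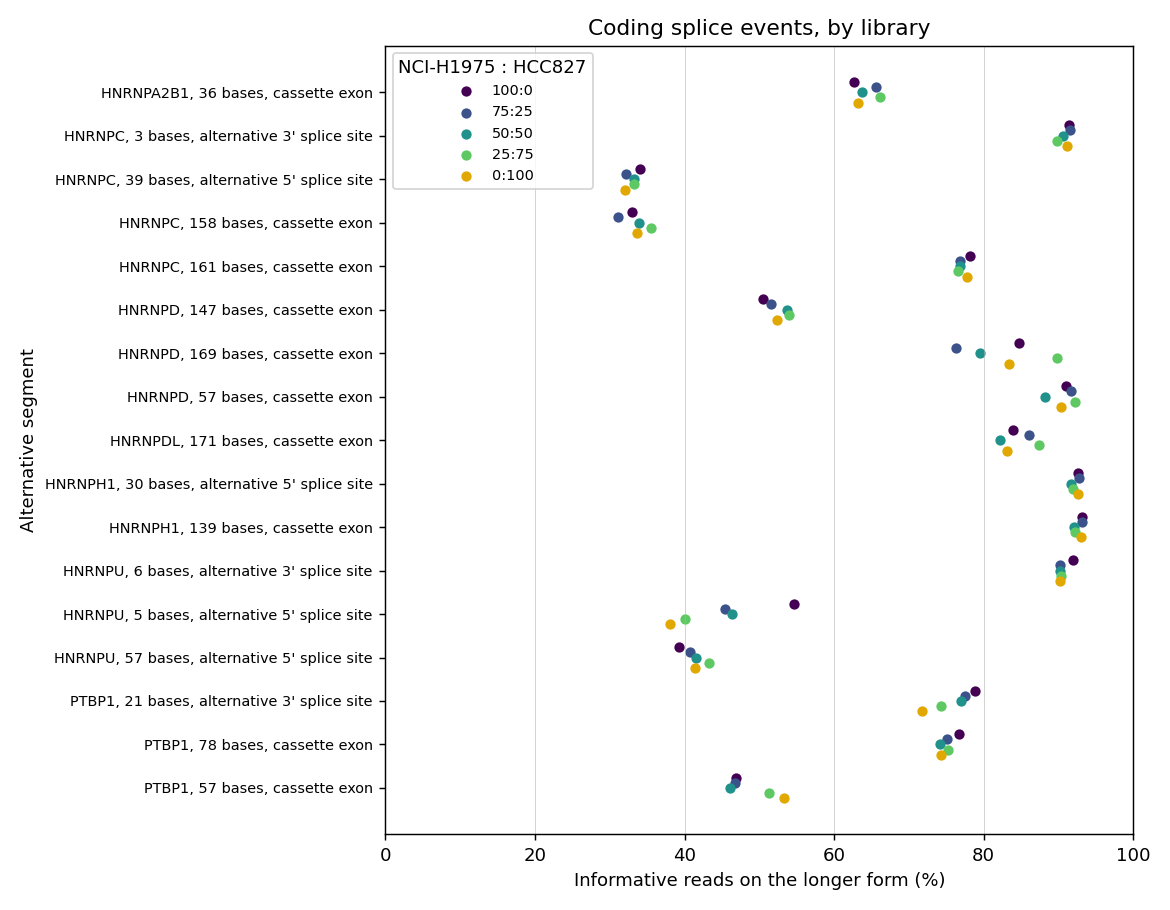
Share of informative reads on the longer form (horizontal axis, percent) for 17 coding splice events, with 1 point per library coloured by NCI-H1975 to HCC827 ratio. Points of an event mostly lie within a few percentage points, as for the 36-base exon of HNRNPA2B1 between 62.6% and 66.2%, and the 5-base event of HNRNPU spreads from 54.6% to 38.0%.

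PKM, whose mutually exclusive exons are a textbook target of PTBP1, HNRNPA1 and HNRNPA2B1, was measured beside them. PKM stood at 763.6, 678.8, 600.5, 647.2 and 556.7 CPM and fell (slope -0.39 ± 0.12 SE, edgeR adjusted p = 0.0165), with the 25:75 library above the 50:50 library. Of the reads assigned to transcripts with 1 of the exons, those with the PKM1 exon (chr15:72203022-72203188) took 38.6% (95% Wilson interval 36.5 to 40.8), 39.4%, 37.9%, 37.9% and 40.3% (37.5 to 43.1). The rest were assigned to transcripts with the PKM2 exon (chr15:72202454-72202620), and no slope was detectable (0.724 percentage points, p = 0.6 by exact permutation). Reads were not checked for covering either exon. How the division of reads between PKM transcripts bears on these shares was not tested.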

How the data were processed

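The authors deposited 1 table per library with an estimated count of reads per transcript and a transcript length. Salmon 1.9.0, minimap2 2.24 and GRCh38 are named in the submitters' processing notes, with no role given; the annotation release and strand use are not given in the sources used here. All but 2 values were whole, and these were rounded. The 161 identifiers listed a second time were summed. Of 227751 human transcripts, 224076 matched GENCODE v44 (98.63% of human reads). For 34 of the 202 transcripts of the 10 genes, with 17.1% of their reads, the deposited length differed from GENCODE v44. Sequins were left out of the fits.

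Gene sums and transcripts with at least 10 reads in at least 2 libraries were tested with edgeR 4.0.16 in R 4.3.3 (TMM scaling, quasi-likelihood slope on the HCC827 fraction, Benjamini-Hochberg threshold 0.05). Alternatives used DESeq2 1.42.0 and limma 3.58.1, other scalings and read filters, protein-coding transcripts only, and leaving out each library. Removing the trend on transcript length was added after seeing the data. Splice events needed 100 reads and at least 5% on the rarer form. No molecular identifiers were used, so intervals cover counting error only. The tests were tested on simulated data. A missing call does not show that a gene or transcript was unchanged. Genes named in the text were all 10 genes, their transcripts with at least 5% of the gene's reads or a call (at most 6 per gene named, the rest by count), the splice events (in part by range), the 3 steepest called genes each way of the wider list, PKM, and the 3 genes closest in course to HNRNPA1. The genes and lists were chosen with earlier results of these data known. An alternative segment of 1 gene is not reported here.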

Additional observations from a re-analysis of the deposited data

How the results depend on the processing

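HNRNPA1, HNRNPA2B1, HNRNPH1, HNRNPL and PTBP1 kept their direction and their call in all 13 alternatives, with slopes from 0.79 to 1.31, -1.10 to -0.52, -1.34 to -0.83, 0.37 to 0.99 and 0.35 to 0.80; library totals gave the lowest of each. HNRNPC lost its call with library totals (slope 0.0071) and with the length trend removed (0.26). The slopes of HNRNPDL (-0.28 with library totals), HNRNPU (0.12 with the length trend removed) and HNRNPK (-0.15 to 0.16 with 1 library left out, the highest without the 0:100 library) changed sign, none of them past the threshold. With library totals, 1808 genes rose and 5091 fell, against 3169 and 3006 with TMM. Leaving out each library in turn gave 4067 to 5859 called genes by slope (6175 in all libraries), 6287 to 10171 called transcripts (10660), 4 to 20 genes called for isoform usage (30) and 0 to 4 for type usage (7); the lowest counts came without the 0:100 library for both slopes, without the 100:0 library for isoform usage, and without the 100:0 or the 25:75 library for type usage. Type usage called 3 genes when 10 reads were required in every library. That filter removed HNRNPL-206, and the isoform call on HNRNPL was then lost (adjusted p = 1.0). With protein-coding transcripts only, the slope of the 163-base HNRNPC exon in the untranslated leader was 0.0256 percentage points, against -0.433 with all transcripts, and that of its 26-base exon was -1.62 (p = 0.0167 by exact permutation), against -1.19 (p = 0.167). Cause was not tested for any of these beyond the construction of the alternative. No paired analysis was possible because each ratio had 1 library. Depth limits the rarer forms most: HNRNPL-206 had 8 reads in the 0:100 library, and the HNRNPU 5-base event had 71 informative reads there.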
